A study of Mus musculus with 18 samples.

Results

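The 10 genes described here belong to the signalling route that runs from tumour necrosis factor (TNF) to the transcription factor NF-kB. They are the ligand gene Tnf, the receptor genes Tnfrsf1a, Tnfrsf1b and Tnfrsf12a, the inhibitor genes Tnfaip3 and Nfkbia, the ubiquitin ligase gene Birc3, and the NF-kB subunit genes Nfkb1, Nfkb2 and Relb. They were chosen by gene symbol from a count table of 54752 genes, and all 10 were among the 21840 genes that had enough counts to be tested. Long RNA had been counted in the livers of 18 male C57BL/6 mice, 6 in each of 3 groups. The groups had started with 15 mice each, aged 6 weeks, and livers were taken in week 22. Controls received olive oil by injection into the peritoneum 2 times a week, and water by gavage every day. Mice of the CCl4 group had carbon tetrachloride injected on the same schedule, with the same water, to bring on liver cancer. Mice of the CCl4_PTH group had the CCl4 injections and were given PTH by gavage every day in place of the water. PTH is short for Pien Tze Huang, a remedy of traditional Chinese medicine, which other labels of the series write as PZH. CCl4 is a solvent that hepatocytes turn into a reactive radical, so that repeated doses injure and scar the liver. Whether a piece of liver held tumour, and the time since the last injection, are not given in the sources used here.

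TNF is made chiefly by macrophages and other leukocytes and binds the receptors coded by Tnfrsf1a, which most cells carry, and Tnfrsf1b, which leukocytes and endothelium carry. In the classical branch, a kinase complex marks the inhibitor IkBα (Nfkbia) for destruction, and dimers that hold p50 (from Nfkb1) enter the nucleus. In the alternative branch, which receptors such as Fn14 (Tnfrsf12a) can start, the p100 precursor (from Nfkb2) is cut to p52 and pairs with RelB. Nfkbia, Tnfaip3, Birc3, Nfkb2, Relb and Tnf itself are textbook targets of NF-kB, and the products of the first 2 act back on the route as brakes. In liver, TNF can drive both the survival and the death of hepatocytes, and Fn14 is known for its rise in injured and regenerating tissue.

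The DNA just before the start of 4 of these genes is shown because NF-kB binds a short, well-known site, named here the kappaB consensus. RefSeq (GRCm38.p6) gave start sites for 8 of the 10 members, with 11 start windows of 250 bases in all. On either strand, 5 of these windows, belonging to Tnfaip3, Nfkbia and Nfkb2, held a match to the kappaB consensus, and 3.90% of 32851 such windows of all genes did. By gene that was 3 of the 8 members, since Nfkb2 had several start windows, some of them overlapping. These 3 genes were named above as known NF-kB targets, so the share of all windows is given for scale only. The windows printed are chr10:19015411-19015660 (Tnfaip3, minus strand), chr12:55492648-55492897 (Nfkbia, minus strand), chr19:46304487-46304736 (Nfkb2, plus strand) and chr17:35202008-35202257 (Tnf, minus strand), each read 5′ to 3′ along the gene and ending at the base before the start, with matches in capitals.
Tnfaip3: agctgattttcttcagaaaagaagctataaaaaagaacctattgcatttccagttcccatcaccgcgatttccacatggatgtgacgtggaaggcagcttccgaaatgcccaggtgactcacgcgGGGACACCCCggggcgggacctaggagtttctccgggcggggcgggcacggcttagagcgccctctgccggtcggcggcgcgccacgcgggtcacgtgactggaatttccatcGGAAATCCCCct
Nfkbia: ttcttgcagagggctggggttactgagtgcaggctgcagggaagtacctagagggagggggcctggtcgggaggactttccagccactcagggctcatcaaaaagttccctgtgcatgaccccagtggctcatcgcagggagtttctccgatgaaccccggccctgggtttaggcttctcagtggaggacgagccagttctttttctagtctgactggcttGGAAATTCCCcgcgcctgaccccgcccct
Nfkb2: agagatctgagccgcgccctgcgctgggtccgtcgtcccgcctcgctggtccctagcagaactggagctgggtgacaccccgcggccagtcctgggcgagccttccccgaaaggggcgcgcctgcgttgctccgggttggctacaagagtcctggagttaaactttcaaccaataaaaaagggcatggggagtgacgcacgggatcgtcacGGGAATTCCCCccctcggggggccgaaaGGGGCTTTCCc
Tnf: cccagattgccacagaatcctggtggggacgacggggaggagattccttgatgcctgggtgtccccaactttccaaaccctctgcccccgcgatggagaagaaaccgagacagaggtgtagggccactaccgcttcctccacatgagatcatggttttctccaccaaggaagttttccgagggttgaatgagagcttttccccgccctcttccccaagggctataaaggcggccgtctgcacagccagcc
In Tnfaip3 the matches lay 125 to 116 and 12 to 3 bases before the start, and in Nfkbia the match lay 29 to 20 bases before it. The Nfkb2 window held 3 matches, of which 2 overlapped (39 to 30 and 38 to 29 bases before the start) and the third lay 11 to 2 bases before it. The Tnf window held no match to the kappaB consensus, and sites further upstream were not looked for. The windows printed for Tnf and Tnfaip3 each held 1 copy of TATAAA, a motif that 12.4% of the windows held on either strand. Matches are letters in a window, and binding was not measured.

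Levels are given as CPM, the counts of a gene scaled to a common library size with edgeR's TMM factors. Total counts ran from 67.2 M to 119 M per library, of which 30.6% to 55.8% fell on ribosomal RNA loci and 35.6 M to 79.7 M counts on other genes. The 8 hepatocyte markers together ran from 18124 to 57253 CPM over the 18 libraries, so the genes that define liver tissue were present in every one. Libraries carry the numbers of their labels. CCl4 4 had the lowest hepatocyte marker sum and, at 536 CPM, the highest sum of 6 pan-leukocyte markers, and CCl4 7 had 489 CPM of these, while the other 4 CCl4 libraries had 202 to 291 CPM. CCl4_PTH 1 stood apart from its group in neutrophil markers (180 CPM for 9 genes) and bile duct markers (254 CPM for 6 genes). Spp1, of the bile duct list, is also in the monocyte and macrophage list, so that sum need not be RNA of bile duct alone. Each library came from a separate mouse of its group, so the tests below set differences between groups against the spread between these mice. The edgeR test takes 1 estimate of that spread per gene, shared by the groups, also where 1 group varied more than the others.

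CCl4 livers had more RNA of 8 of the 10 genes than control livers, and none had less. The rise was 20.8-fold for Tnf (a log2 change of 4.38, and of 3.22 without CCl4 4 and 7), between 3.96-fold and 5.84-fold for Tnfrsf12a, Tnfaip3 and Relb, 2.88-fold for Nfkb2, 1.86-fold for Nfkb1, and 1.56-fold and 1.37-fold for Tnfrsf1b and Tnfrsf1a. Nfkbia and Birc3 did not pass the threshold, an adjusted p of 0.05 in edgeR's quasi-likelihood test with Benjamini-Hochberg adjustment over the 21840 genes. In CCl4_PTH livers 5 of the 10 genes (Tnf, Tnfrsf1b, Tnfrsf12a, Nfkb1 and Nfkb2) were lower than in CCl4 livers, and 5 (Tnf, Tnfaip3, Nfkb1, Nfkb2 and Relb) were higher than in control livers. The count of 5 lower genes ran from 0 to 7 when 1 library was left out.

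The background to these counts differed between comparisons. The members were chosen with earlier results of these data known, so setting them beside all genes describes them and tests no excess. For CCl4 against control, 26.3% of the genes tested were called higher and 21.2% lower, and the median log2 fold change was 1.21 over the 10 members and 0.05 over all genes tested. For CCl4_PTH against CCl4, 7.1% were called higher and 4.95% lower, against 0 and 5 of the 10 members, with medians of -0.53 over the members and -0.03 over all genes. For CCl4_PTH against control, 17.4% were called higher and 10.3% lower, against 5 and 0 of the members, with medians of 0.56 and 0.04. Where 0 members were called, lower in the outer comparisons and higher in the middle one, 0 also had an unadjusted edgeR p under 0.05, and 0 were called by DESeq2 or by limma voom. These 3 comparisons share their libraries, so their values are set side by side and are not independent of each other. In whole liver, fewer cells of a type and less RNA per cell cannot be told apart.

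The groups were also compared by whether they overlapped. All 6 CCl4 libraries lay above all 6 control libraries for 6 members (Tnf, Tnfrsf12a, Tnfaip3, Nfkb1, Nfkb2 and Relb), as they did for 14.8% of all genes tested, and below them for 0 members, against 11.3% of all genes. All 6 CCl4_PTH libraries lay below all 6 CCl4 libraries for 1 member, Tnf, as for 1.87% of all genes, and above them for 0 members, against 2.2%. All 6 CCl4_PTH libraries lay above all 6 control libraries for 5 members (Tnf, Tnfaip3, Nfkb1, Nfkb2 and Relb), as for 9.79% of all genes, and below them for 0 members, against 4.67%.

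**Figure D1:**
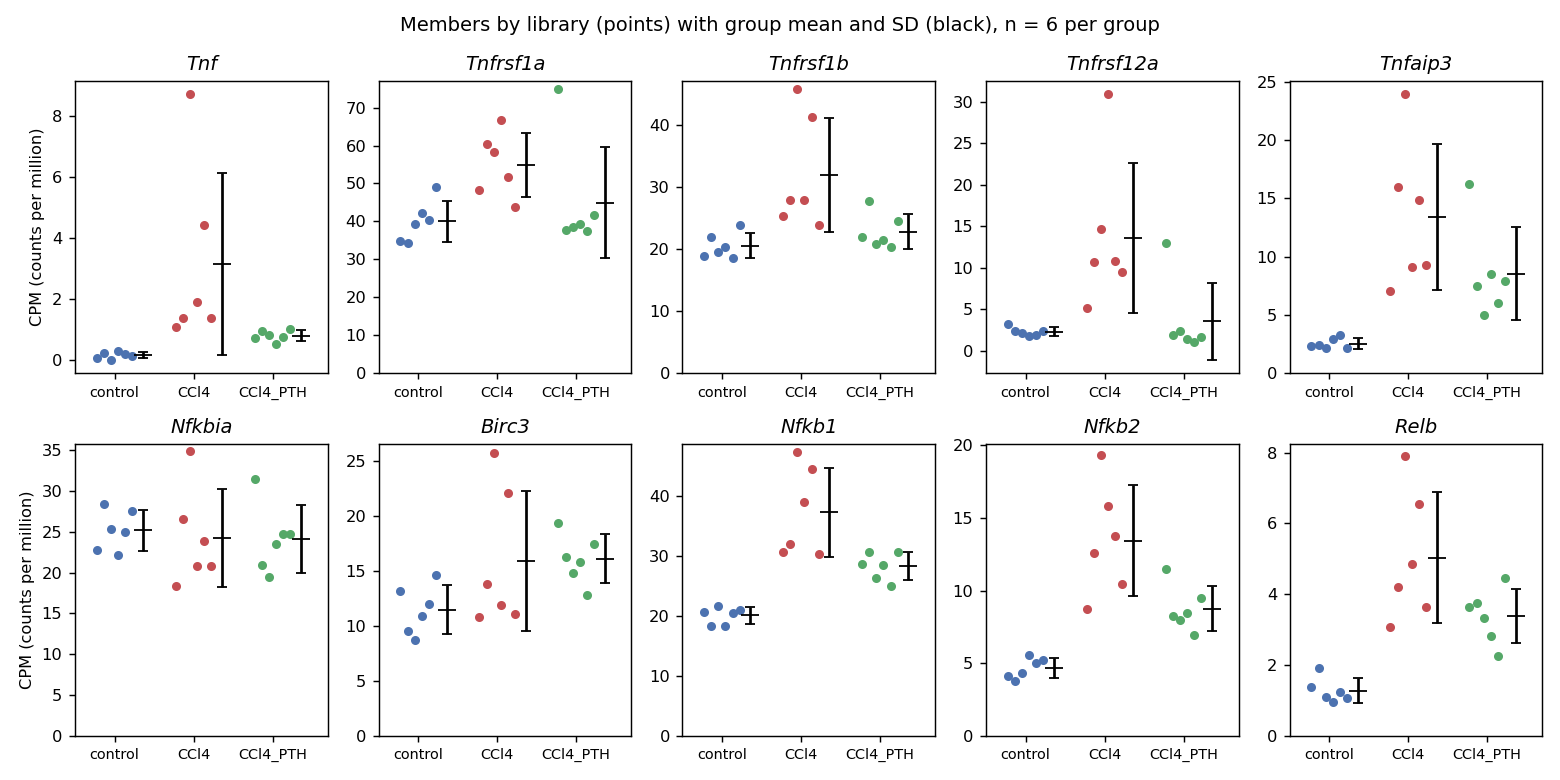
Each point is the level of a member in 1 library in CPM (linear axes, 1 panel per gene), with the group mean and SD in black (n = 6). The CCl4 points of Tnf, Tnfrsf12a, Tnfaip3, Nfkb1, Nfkb2 and Relb lie above all control points, and 1 CCl4_PTH library stands far above the other 5 for Tnfrsf1a, Tnfrsf12a and Tnfaip3.

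The ligand gene Tnf (chr17:35199381-35202007, minus strand) was close to silent in control livers. It had 58 counts in the 6 control libraries together, with 0 counts in control 3, and its level ran from 0 over a median of 0.164 to 0.275 CPM. In CCl4 livers the level ran from 1.06 over 1.64 to 8.72 CPM, and in CCl4_PTH livers from 0.506 over 0.764 to 1.01 CPM. The 3 groups did not overlap: every CCl4_PTH library lay between the controls and the CCl4 libraries. Most of the spread among CCl4 livers came from CCl4 4 at 8.72 CPM and CCl4 7 at 4.42 CPM, and the other 4 stood at 1.06 to 1.91 CPM. The log2 fold change was 4.38 ± 0.61 (SE, n = 6 per group) for CCl4 against control (edgeR adjusted p = 1.32e-05). Without CCl4 4 it was 3.75 (edgeR adjusted p = 1.48e-05), and without CCl4 4 and 7 it was 3.22 (edgeR adjusted p = 5.18e-05). The log2 fold change was -2.01 ± 0.52 for CCl4_PTH against CCl4 (edgeR adjusted p = 0.0177), a 4.02-fold lower level. Without CCl4 4 this difference was -1.37 (edgeR adjusted p = 0.0742), and without CCl4 7 it was -1.86 (edgeR adjusted p = 0.0471). Without CCl4 4 and 7 it was -0.87 (edgeR adjusted p = 0.313). With 1 library left out, the call held in 17 of 18 fits and was lost only without CCl4 4. The other 4 CCl4 livers, at 1.06 to 1.91 CPM, still lay above all CCl4_PTH livers, which reached 1.01 CPM. Against control, CCl4_PTH livers were higher by 2.37 ± 0.58 (edgeR adjusted p = 0.00562).

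By the medians of their sums, 4 of the 6 leukocyte marker lists were ordered like Tnf over the groups, highest in CCl4 and lowest in control livers. The summed level of the 6 pan-leukocyte markers was 101 to 113 CPM in control, 202 to 536 CPM in CCl4 and 149 to 230 CPM in CCl4_PTH livers. All 6 rose with CCl4, and 3 of the 6 were lower in CCl4_PTH than in CCl4 livers. The 10 monocyte and macrophage markers had 93.4 to 118, 449 to 1035 and 281 to 556 CPM in the same order. For the 9 neutrophil markers the sums were 1.82 to 4.23, 14.1 to 96.4 and 12.3 to 180 CPM (medians 3.04, 25.0 and 15.6), with Ly6g, Mpo and Mmp8 at 3 counts or less over the control group. Of the 8 neutrophil markers tested, 0 were called between CCl4_PTH and CCl4, and 6 had a log2 fold change above 0 (median 0.27). The 10 T and NK cell markers summed to 1.48 to 3.28, 2.85 to 34.2 and 1.38 to 11.4 CPM. Sums of the 7 Kupffer cell markers had medians of 241, 286 and 315 CPM, and those of the 6 B and plasma cell markers 3.50, 11.5 and 15.0 CPM, so both medians were highest in CCl4_PTH livers. The part of these cell types in the result for Tnf was not tested.

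**Figure D2:**
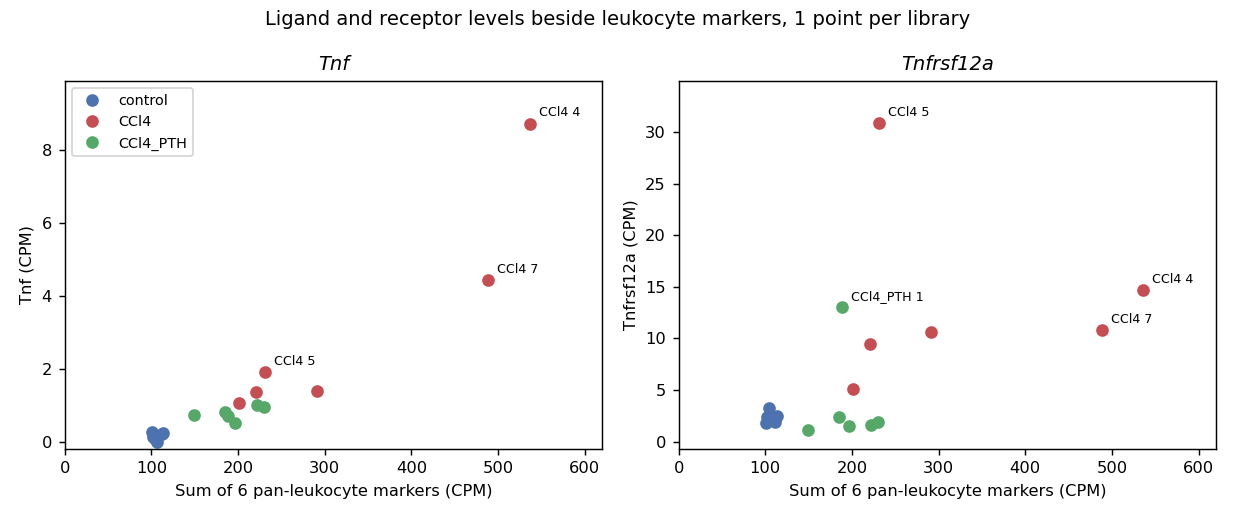
Levels of Tnf (left) and Tnfrsf12a (right) in CPM, on linear axes, against the summed CPM of 6 pan-leukocyte markers, with 1 point per library. CCl4 4 (536 CPM of markers) and CCl4 7 (489 CPM) have the most Tnf, whereas the libraries with the most Tnfrsf12a in each CCl4-treated group, CCl4 5 and CCl4_PTH 1, are not those with the most leukocyte markers.

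Tnf was also set against Ptprc, the gene of the leukocyte surface protein CD45, within each library. The log2 ratio of Tnf to Ptprc counts (0.5 added to each) was -6.89 ± 2.0 in control, -4.91 ± 0.58 in CCl4 and -5.78 ± 0.44 in CCl4_PTH livers (SD, n = 6). It was 1.98 higher in CCl4 than in control livers (exact two-sided permutation test over libraries, p = 0.00649, adjusted p = 0.0195 over 18 tests of 6 ratios), with groups that overlapped. This call was lost without CCl4 4 (1.81), CCl4 5 (1.91) or CCl4 7 (1.96), with adjusted exact permutation p of 0.0612, 0.0536 and 0.0536, and without CCl4 4 and 7 (1.73, adjusted exact permutation p = 0.171). Without control 3 the difference was 1.21. The ratio was 0.87 higher in CCl4 than in CCl4_PTH livers (exact permutation p = 0.0130, adjusted p = 0.0292). Leaving out CCl4 4, 5 or 7 or CCl4_PTH 2, 6 or 8 took the adjusted exact permutation p to between 0.0501 and 0.0682, and without CCl4 4 and 7 it was 0.118, so neither call held under every library left out. The smallest p that 6 against 6 libraries can give in this test is 0.00216. Control 3, with its 0 Tnf counts, stood lowest at -10.7, where the other 5 controls ran from -7.20 to -5.17.

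Among the receptors, Tnfrsf12a (Fn14, the receptor of TWEAK; chr17:23675445-23677468, minus strand) had the largest fold changes. It ran from 1.78 over 2.27 to 3.30 CPM in control livers and from 5.13 over 10.7 to 30.9 CPM in CCl4 livers, with no overlap and with CCl4 5 far above the rest. In CCl4_PTH livers it stood at 13.0 CPM in library 1 and at 1.12 to 2.40 CPM in the other 5, which lay within or below the range of the controls. The log2 fold change was 2.54 ± 0.57 for CCl4 against control (edgeR adjusted p = 0.00146), -1.92 ± 0.56 for CCl4_PTH against CCl4 (edgeR adjusted p = 0.0321) and 0.62 ± 0.55 for CCl4_PTH against control (edgeR adjusted p = 0.430). Without CCl4_PTH 1 the middle comparison gave -2.97 (edgeR adjusted p = 5.55e-05), and CCl4_PTH against control turned to -0.46 (edgeR adjusted p = 0.351). Leaving out CCl4 4, 5 or 7, or CCl4_PTH 2, 3, 6, 7 or 8, left the middle comparison between -1.98 and -1.50 with edgeR adjusted p from 0.0501 to 0.0759. CCl4_PTH 1, the library with the most Tnfrsf12a in its group, also had the most neutrophil, bile duct and stellate cell marker RNA of its group. It had the least marker RNA of Kupffer cells, T and NK cells, B and plasma cells and endothelium. The part of these cell types in its Tnfrsf12a level was not tested.

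Tnfsf12, the gene of the Fn14 ligand TWEAK, was not called in any comparison (log2 fold changes of 1.05 ± 0.54, -0.24 ± 0.53 and 0.81 ± 0.54, in turn for CCl4 set against control, then for CCl4_PTH set against CCl4 and against control). Its counts are uncertain, since its exons are shared with the read-through gene Tnfsfm13 and control 4 had 0 counts of it. The log2 ratio of Tnfrsf12a to Tnfsf12 was 1.27 ± 3.32 in control livers, with control 4 at 7.86 from its 0 Tnfsf12 counts. It was 1.37 ± 0.99 in CCl4 and -0.75 ± 1.44 in CCl4_PTH livers (SD, n = 6, exact permutation p = 0.0195, adjusted p = 0.0390 over 18 tests). Against control the differences were 0.10 for CCl4 (exact permutation p = 0.974, adjusted p = 0.974) and -2.01 for CCl4_PTH (exact permutation p = 0.180, adjusted p = 0.267). Leaving out CCl4 4, 5, 7 or 8 or CCl4_PTH 2, 3, 6, 7 or 8 took the adjusted exact permutation p of CCl4_PTH against CCl4 to between 0.0563 and 0.0736.

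The genes of the TNF receptors had smaller fold changes than the ligand gene. Tnfrsf1b (TNFR2; chr4:145213463-145246870, minus strand) ran from 18.5 over 19.9 to 23.9 CPM in control, from 23.8 over 27.8 to 45.7 CPM in CCl4 and from 20.3 over 21.7 to 27.7 CPM in CCl4_PTH livers. The highest CCl4 livers were again CCl4 4 (45.7 CPM) and CCl4 7 (41.3 CPM), and each pair of groups overlapped. It rose by 0.64 ± 0.14 on the log2 scale with CCl4 (edgeR adjusted p = 0.0012), and by 0.34 without CCl4 4 and 7 (edgeR adjusted p = 0.0129). In CCl4_PTH livers it was lower than in CCl4 livers by a log2 difference of -0.49 ± 0.14 (edgeR adjusted p = 0.0323), and 0.15 ± 0.14 from control (edgeR adjusted p = 0.463). Leaving out CCl4 4 or 7 or CCl4_PTH 3, 6 or 7 took the adjusted p of CCl4_PTH against CCl4 to between 0.0789 and 0.104, and without CCl4 4 and 7 the difference was -0.20 (edgeR adjusted p = 0.320).

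Tnfrsf1a (TNFR1; chr6:125349362-125362484, plus strand) ran from 34.4 over 39.8 to 49.0 CPM in control and from 43.7 over 55 to 66.7 CPM in CCl4 livers. In CCl4_PTH livers library 1 stood at 74.8 CPM and the other 5 at 37.4 to 41.7 CPM. It rose by 0.46 ± 0.16 with CCl4 (edgeR adjusted p = 0.0239), and lost this call without control 1, 2 or 3 or without CCl4 2 or 5 (edgeR adjusted p from 0.0533 to 0.0745). The difference between CCl4_PTH and CCl4 was -0.29 ± 0.16 (edgeR adjusted p = 0.255), and without CCl4_PTH 1 it was -0.47 (edgeR adjusted p = 0.00566). With limma voom on all libraries this difference was -0.43 and was called (limma voom adjusted p = 0.0161). CCl4_PTH stood 0.17 ± 0.16 from control (edgeR adjusted p = 0.465), and -0.05 without CCl4_PTH 1 (edgeR adjusted p = 0.781).

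The balance between the receptors gave a value that does not depend on scaling between libraries. The log2 ratio of Tnfrsf1b to Tnfrsf1a was -0.96 ± 0.17 in control, -0.81 ± 0.39 in CCl4 and -0.94 ± 0.44 in CCl4_PTH livers (SD, n = 6), and no comparison passed (exact permutation p from 0.396 to 0.935, adjusted p from 0.475 to 0.974). Against Ptprc, in contrast, Tnfrsf1b fell: the log2 ratio was 0.71 ± 0.39 in control, -1.16 ± 0.42 in CCl4 and -0.90 ± 0.32 in CCl4_PTH livers (SD, n = 6). Every treated liver of both groups lay below every control (exact permutation p = 0.00216, adjusted p = 0.0130 for each), and CCl4_PTH and CCl4 differed by 0.26 (exact permutation p = 0.238, adjusted p = 0.306). Ptprc itself was 6.16-fold higher in CCl4 than in control livers, whereas Tnfrsf1b was 1.56-fold higher.

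**Figure D3:**
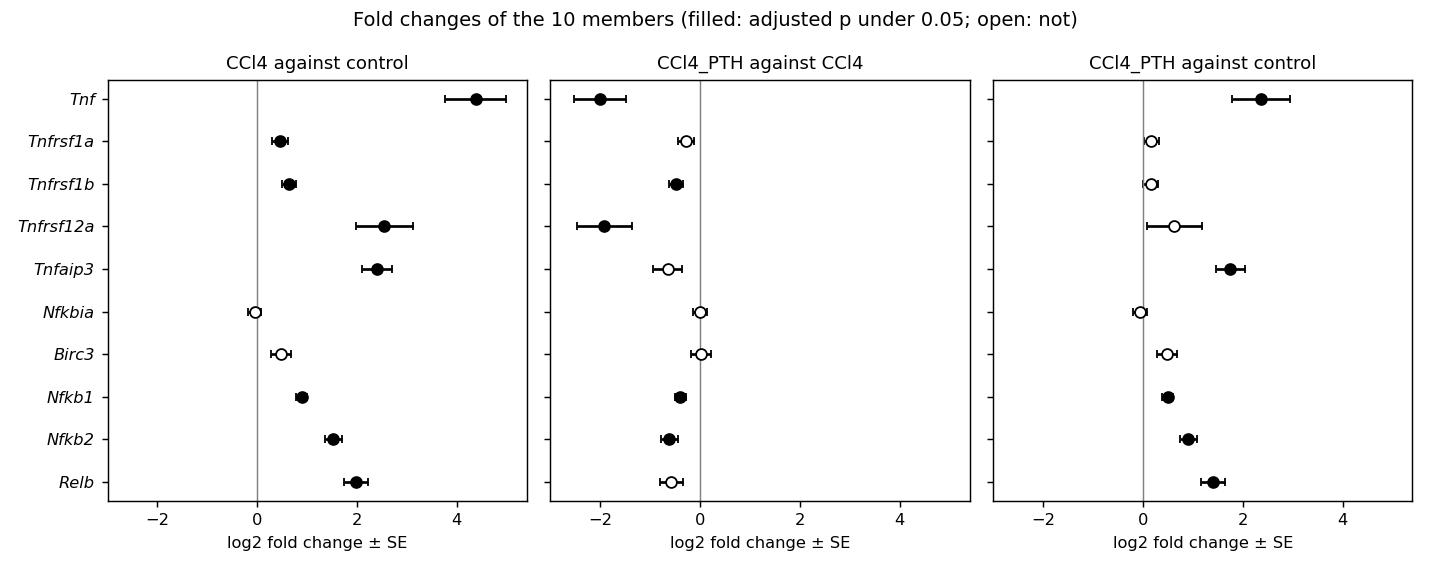
Log2 fold changes of the 10 members in the 3 comparisons, with bars of 1 SE from edgeR (n = 6 per group), filled where the adjusted p over all genes was under 0.05. With CCl4 all members but Nfkbia and Birc3 are filled on the right, and for CCl4_PTH against CCl4 the filled points, all on the left, are Tnf, Tnfrsf1b, Tnfrsf12a, Nfkb1 and Nfkb2.

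Of the inhibitors, Tnfaip3 rose and Nfkbia was not called. Tnfaip3 (chr10:19000910-19015657, minus strand) codes for A20, an enzyme that edits ubiquitin chains and shuts off signalling from the TNF receptor. Its level ran from 2.16 over 2.35 to 3.22 CPM in control, from 7.05 over 12.1 to 24.0 CPM in CCl4 and from 4.99 over 7.68 to 16.2 CPM in CCl4_PTH livers. All 12 treated livers stood above all controls, and CCl4 and CCl4_PTH overlapped, with CCl4_PTH 1 at 16.2 CPM and the other 5 at 8.49 CPM or below. The log2 fold change was 2.40 ± 0.30 for CCl4 against control (edgeR adjusted p = 5.29e-06) and 1.75 ± 0.30 for CCl4_PTH against control (edgeR adjusted p = 0.000337). Between CCl4_PTH and CCl4 it was -0.65 ± 0.29 (edgeR adjusted p = 0.145), and without CCl4_PTH 1 it was -0.91 (edgeR adjusted p = 0.0166). With limma voom on all libraries it was -0.78 and was called (limma voom adjusted p = 0.0215). Without CCl4 4 it was -0.40 (edgeR adjusted p = 0.401), and without CCl4 4 and 7 it was -0.28 (edgeR adjusted p = 0.676).

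Nfkbia (chr12:55489410-55492647, minus strand), whose start window holds a kappaB match as that of Tnfaip3 does, was not called in any comparison. It ran from 22.2 over 25.2 to 28.4 CPM in control, from 18.4 over 22.3 to 35.0 CPM in CCl4 and from 19.5 over 24.1 to 31.5 CPM in CCl4_PTH livers, and the groups overlapped. The highest livers of the treated groups were CCl4 4 and CCl4_PTH 1. The log2 fold changes were -0.05 ± 0.14, -0.01 ± 0.14 and -0.06 ± 0.14 in the order of comparison used above (edgeR adjusted p = 0.779, 0.983 and 0.787). With library sizes in place of TMM factors the first of these became 0.58 (edgeR adjusted p = 0.0156), a scaling that shifted the median over all genes tested from 0.05 to 0.63.

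Birc3 (chr9:7848699-7873186, minus strand) codes for cIAP2, a ubiquitin ligase bound to the TNF receptor complex. It ran from 8.71 over 11.4 to 14.6 CPM in control, from 10.9 over 12.9 to 25.8 CPM in CCl4 and from 12.8 over 16.1 to 19.4 CPM in CCl4_PTH livers. CCl4 4 (25.8 CPM) and CCl4 7 (22.1 CPM) stood above the other 4 CCl4 livers, which had 10.9 to 13.8 CPM. The differences were 0.47 ± 0.20 for CCl4 against control (edgeR adjusted p = 0.0609), 0.02 ± 0.20 for CCl4_PTH against CCl4 (edgeR adjusted p = 0.971) and 0.49 ± 0.20 for CCl4_PTH against control (edgeR adjusted p = 0.0782). The first was 0.29 without CCl4 4 (edgeR adjusted p = 0.193), 0.32 without CCl4 7 (edgeR adjusted p = 0.202) and 0.04 without both (edgeR adjusted p = 0.862). It passed without CCl4 1, 5 or 8 (edgeR adjusted p from 0.0355 to 0.0496) and with library sizes only (1.09, edgeR adjusted p = 0.0033). The difference between CCl4_PTH and control passed under 5 of 27 alternatives. These were without CCl4 4 (0.50, edgeR adjusted p = 0.0310), without CCl4 4 and 7 (0.47, edgeR adjusted p = 0.00956) and in a fit of only the 2 groups (0.50, edgeR adjusted p = 0.011). The others were library sizes only (0.95, edgeR adjusted p = 0.0122) and limma voom (0.50, limma voom adjusted p = 0.0263). Birc2, its close relative that codes for cIAP1, was higher by 0.58 ± 0.12 with CCl4 (edgeR adjusted p = 0.000438) and by 0.40 ± 0.12 in CCl4_PTH than in control livers (edgeR adjusted p = 0.0158).

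All 3 subunit genes rose with CCl4 without overlap between the groups, with larger log2 fold changes for Nfkb2 and Relb, of the alternative branch, than for Nfkb1. Nfkb1 (chr3:135584655-135691547, minus strand) codes for p105, the precursor of p50. It ran from 18.3 over 20.6 to 21.6 CPM in control, from 30.2 over 35.4 to 47.2 CPM in CCl4 and from 24.9 over 28.5 to 30.6 CPM in CCl4_PTH livers. Every CCl4_PTH liver stood above the controls, and the upper CCl4_PTH livers reached the lowest CCl4 livers. The log2 fold changes were 0.89 ± 0.11 (edgeR adjusted p = 2.94e-06), -0.40 ± 0.11 (edgeR adjusted p = 0.0208) and 0.49 ± 0.11 (edgeR adjusted p = 0.00232). The middle call was lost without CCl4 4 or 7 or CCl4_PTH 3 or 7 (edgeR adjusted p from 0.0553 to 0.0698), and without CCl4 4 and 7 the difference was -0.22 (edgeR adjusted p = 0.201).

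Nfkb2 (chr19:46304320-46312385, plus strand) codes for p100, the precursor of p52. Its exons overlap antisense exons of AC114539.1 and Psd, and the sources used here do not give the use of strand in counting. It ran from 3.77 over 4.67 to 5.54 CPM in control, from 8.72 over 13.2 to 19.3 CPM in CCl4 and from 6.92 over 8.34 to 11.5 CPM in CCl4_PTH livers. Treated livers all lay above the controls, and CCl4_PTH 1 at 11.5 CPM was the highest of its group. The log2 fold changes were 1.53 ± 0.17 (edgeR adjusted p = 1.18e-06), -0.62 ± 0.17 (edgeR adjusted p = 0.0203) and 0.91 ± 0.17 (edgeR adjusted p = 0.000616). The middle call was lost without CCl4 4 or CCl4_PTH 7 (edgeR adjusted p = 0.0632 and 0.0576), and without CCl4 4 and 7 the difference was -0.44 (edgeR adjusted p = 0.159).

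Relb (chr7:19606217-19629438, minus strand), the partner of p52, ran from 0.964 over 1.16 to 1.92 CPM in control, from 3.07 over 4.53 to 7.91 CPM in CCl4 and from 2.26 over 3.47 to 4.47 CPM in CCl4_PTH livers. All treated livers stood above the controls, with CCl4 4 and CCl4 7 (6.56 CPM) the highest. The log2 fold changes were 1.98 ± 0.24 (edgeR adjusted p = 2.76e-06), -0.58 ± 0.23 (edgeR adjusted p = 0.104) and 1.41 ± 0.24 (edgeR adjusted p = 0.000271). Without CCl4 1 the middle value was -0.67 (edgeR adjusted p = 0.0494), without CCl4 4 it was -0.40 (edgeR adjusted p = 0.301), and without CCl4 4 and 7 it was -0.22 (edgeR adjusted p = 0.664).

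The other subunit genes behaved unequally. Rela, which codes for p65, the usual partner of p50, had log2 fold changes of 0.02 ± 0.08, -0.21 ± 0.08 and -0.19 ± 0.08, none of them called. Rel, which codes for c-Rel, a subunit of lymphoid and myeloid cells, rose by 0.97 ± 0.14 with CCl4 (edgeR adjusted p = 1.71e-05) and stood 0.74 ± 0.14 above control in CCl4_PTH livers (edgeR adjusted p = 0.000706). Map3k14, the gene of the kinase NIK that starts the processing of p100, rose by 1.14 ± 0.21 with CCl4 (edgeR adjusted p = 0.00018) and stood 0.84 ± 0.21 above control in CCl4_PTH livers (edgeR adjusted p = 0.00556). Neither Rel (-0.23 ± 0.14) nor Map3k14 (-0.30 ± 0.20) was called between CCl4_PTH and CCl4.

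Ratios within a library set the members against each other. The log2 ratio of Nfkb2 to Nfkb1 was -2.11 ± 0.24 in control, -1.49 ± 0.22 in CCl4 and -1.70 ± 0.20 in CCl4_PTH livers (SD, n = 6). It was 0.62 higher in CCl4 than in control livers (exact permutation p = 0.00433, adjusted p = 0.0156 over 18 tests) and 0.41 higher in CCl4_PTH than in control livers (exact permutation p = 0.0108, adjusted p = 0.0278). The latter had an adjusted exact permutation p of 0.0501 without CCl4_PTH 6 and 0.0557 without CCl4_PTH 8. CCl4_PTH and CCl4 differed by -0.21 (exact permutation p = 0.121, adjusted p = 0.198).

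The ratio of the inhibitor gene Nfkbia to the subunit gene Nfkb1 fell with CCl4. The log2 ratio of Nfkbia to Nfkb1 was 0.33 ± 0.17 in control, -0.63 ± 0.26 in CCl4 and -0.24 ± 0.26 in CCl4_PTH livers (SD, n = 6). Every CCl4 liver lay below every control, a difference of -0.95 (exact permutation p = 0.00216, adjusted p = 0.0130). CCl4_PTH livers lay -0.56 from controls (exact permutation p = 0.00433, adjusted p = 0.0156), with overlap. The difference of 0.39 between CCl4_PTH and CCl4 did not pass (exact permutation p = 0.0390, adjusted p = 0.0701), and passed without CCl4 2 (0.46, adjusted exact permutation p = 0.0260).

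**Figure D4:**
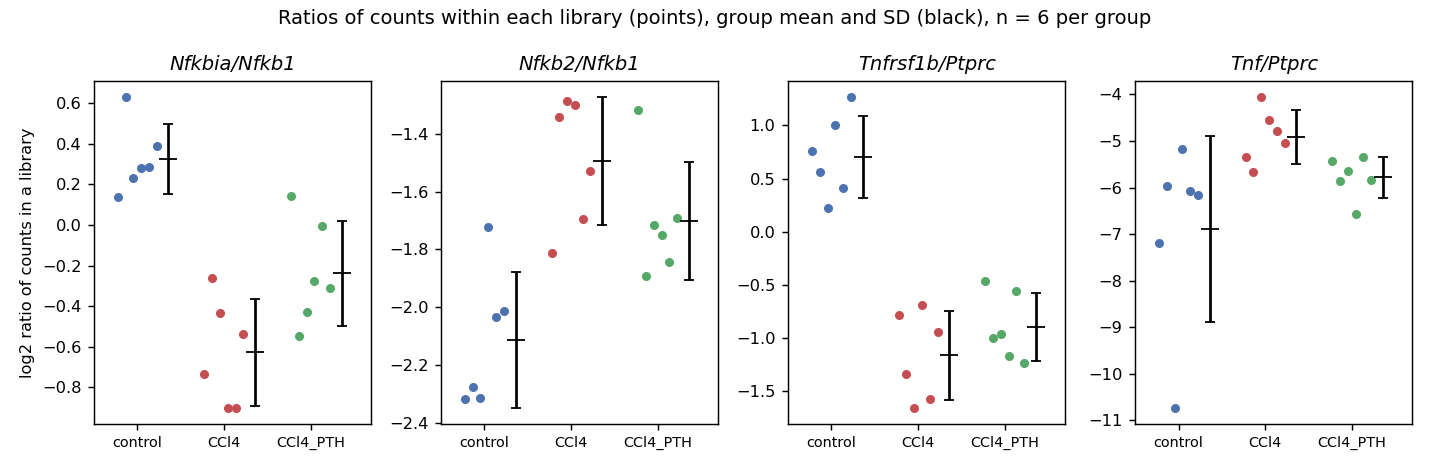
Log2 ratios of counts within each library for Nfkbia to Nfkb1, Nfkb2 to Nfkb1, Tnfrsf1b to Ptprc and Tnf to Ptprc, 1 point per library, with the group mean and SD in black (n = 6; the axes differ between panels and do not start at 0). All CCl4 points lie below all control points for Nfkbia to Nfkb1 and for Tnfrsf1b to Ptprc, and control 3 stands alone at -10.7 for Tnf to Ptprc.

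Levels per kilobase used the length of all annotated exons of a gene, merged over its transcripts. Where that length exceeds that of the RNA made, the level comes out too low, so the order below depends on it. For Nfkb1 it was 12061 bases over 10 transcripts. By this measure Nfkbia and Tnfrsf1a were the most abundant members in every group. In control livers they had 15.6 ± 1.54 and 15.4 ± 2.07 CPM per kb (SD, n = 6) and differed by less than their spread. Tnfrsf1b followed with 5.37 ± 0.54, then Birc3 with 2.29 ± 0.45, Nfkb1 with 1.66 ± 0.12, Tnfrsf12a with 1.20 ± 0.28 and Nfkb2 with 1.02 ± 0.15 CPM per kb. Tnfaip3 (0.349 ± 0.0601) and Relb (0.328 ± 0.0895) lay within each other's spread, and Tnf was lowest with 0.0917 ± 0.0632 CPM per kb. In CCl4 livers Tnfrsf1a had 21.2 ± 3.28 and Nfkbia 15.1 ± 3.71 CPM per kb, and Tnfrsf12a had come up to 7.05 ± 4.66, within the spread of Tnfrsf1b at 8.37 ± 2.40. Birc3 (3.18 ± 1.27), Nfkb1 (3.09 ± 0.62) and Nfkb2 (2.93 ± 0.83) did not differ beyond their spread there, nor did Tnf (1.92 ± 1.83), Tnfaip3 (1.85 ± 0.87) and Relb (1.30 ± 0.48). In CCl4_PTH livers Tnf was lowest again with 0.477 ± 0.111 CPM per kb, below Relb with 0.869 ± 0.197.

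A few livers were often the highest of their group. CCl4 4 was the highest CCl4 library for 8 of the 10 members and CCl4 5 for the remaining Tnfrsf1a and Tnfrsf12a. For 5 members (Tnf, Tnfrsf1b, Birc3, Nfkb1 and Relb) CCl4 4 and 7, which also had the most leukocyte marker RNA, were the highest pair of the 6. CCl4_PTH 1 was the highest of its group for 6 members (Tnfrsf1a, Tnfrsf12a, Tnfaip3, Nfkbia, Birc3 and Nfkb2), and it was not the highest for Tnf, at 0.698 CPM. The number of members called lower in CCl4_PTH than in CCl4 livers, 5, moved with these livers. It was 0 without CCl4 4, 2 without CCl4 7, 0 without both, and 7 without CCl4_PTH 1. It was 2 without CCl4_PTH 3, 3 without CCl4_PTH 6 and 1 without CCl4_PTH 7. The count over all genes tested moved too: 1081 were called lower with all libraries, 582 without CCl4 4, 580 without CCl4 7, 264 without both and 1568 without CCl4_PTH 1. It was 649, 622 and 575 without CCl4_PTH 3, 6 and 7.

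The genes whose profile over the 18 libraries was most like that of a member were sought among 11987 genes with a mean of at least 1 CPM, by the root mean square difference of log2 CPM after centring each gene on its own mean. For Tnf, whose own spread about its mean was 2.14 on this scale, the nearest were Pmaip1 (0.65), Ccl2 (0.69) and Elovl7 (0.85). Pmaip1 codes for the death protein Noxa, Ccl2 for a chemokine that draws monocytes, and Elovl7 for a fatty acid elongase. Their mean levels in control, CCl4 and CCl4_PTH livers were 0.421, 3.15 and 1.62 CPM for Pmaip1, 0.165, 2.81 and 1.39 CPM for Ccl2, and 0.149, 4.26 and 1.15 CPM for Elovl7. For Tnfrsf12a (own spread 1.37) the nearest included Creld2 (0.53), a gene of the endoplasmic reticulum stress response, and Map3k6 (0.59), a stress kinase gene. For Nfkb2 (own spread 0.67) they were Ikbke (0.16), which codes for the NF-kB pathway kinase IKKε, Nin (0.20), a centrosome gene, and Ifngr1 (0.20), a chain of the interferon gamma receptor.

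Beyond the members, 124 further genes of the route were listed by role, of which 113 were tested. This list too was made with earlier results of these data known. Lta, Cd40lg, Tnfsf4, Tnfsf9, Tnfsf11, Tnfsf18, Tnfrsf17, Ccl20, Il6, Csf2 and Ptx3 had too few counts. With CCl4, 68 of the 113 were called higher and 12 lower, with a median log2 fold change of 0.89 (0.05 over all genes tested, of which 26.3% were called higher and 21.2% lower). In CCl4_PTH livers 4 were higher and 17 lower than in CCl4 livers, with a median of -0.24, where 7.1% and 4.95% of all genes were. Against control, 51 were higher and 6 lower in CCl4_PTH livers, with a median of 0.56, where 17.4% and 10.3% of all genes were.

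Counts by role for CCl4 against control are to be read against the 26.3% and 21.2% of all genes called higher and lower, and the gene after "led by" had the smallest p of its role. Of 28 NF-kB target genes tested, 25 rose and 1, Sod2, fell, with a median of 2.66. Of 9 other ligands of the TNF family 6 rose, with a median of 2.92, led by Ltb, which codes for lymphotoxin beta (3.01 ± 0.46, edgeR adjusted p = 3.23e-05). Of 19 other receptors 12 rose and 2 fell, with a median of 1.37, led by Tnfrsf11a, which codes for RANK (2.72 ± 0.24, edgeR adjusted p = 1.40e-07). Tnfrsf9, the gene of CD137, a costimulatory receptor of T cells, had 0 counts in all 6 controls together and 615 counts in CCl4 livers, so it was at least 148-fold higher against a floor of 3 counts over the control group, which covers counting error only.

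The other roles had lower medians than the targets, ligands and receptors. Of 12 kinases 5 rose and 2 fell (median 0.09), with Ikbke up by 1.65 ± 0.14 (edgeR adjusted p = 8.38e-08, with antisense exons overlapping its own) and Chuk, which codes for IKKα, down by a log2 change of -0.96 ± 0.10 (edgeR adjusted p = 9.09e-07). Of 13 ubiquitin-editing genes 4 rose and 2 fell (median -0.09), with Tnip1, the gene of the A20 partner ABIN1, up by 1.49 ± 0.14 (edgeR adjusted p = 2.44e-07). Of 14 adaptor and death-switch genes 7 rose and 3 fell (median 0.26), led by Mlkl, the executor of necroptosis (2.05 ± 0.20, edgeR adjusted p = 3.76e-07). Of 7 other inhibitors of the IkB kind 3 rose and 1 fell (median 0.26), led by Nfkbie, which codes for IkBε (1.94 ± 0.23, edgeR adjusted p = 2.71e-06), while Nfkbib was not called (0.26 ± 0.14). Of 9 genes of TNF release and mRNA control 5 rose and 1 fell (median 0.79), led by Rhbdf1, which codes for iRhom1, a partner of the enzyme that frees TNF from the membrane (0.90 ± 0.11, edgeR adjusted p = 4.47e-06). Among the targets the smallest p was that of Bcl2a1b, a survival gene (4.34 ± 0.34, edgeR adjusted p = 3.12e-08), which has near-identical copies and an overlapping gene and is uncertain for that reason.

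Between CCl4_PTH and CCl4 livers the 17 lower genes lay in several roles. Counts by role are here to be read against the 7.1% and 4.95% of all genes called higher and lower. Of the NF-kB targets 6 were lower and 1, Sod2, was higher (0.56 ± 0.09, edgeR adjusted p = 0.00173), and of the receptors 4 were lower and 1 higher. Tnfrsf11a was lower by a log2 difference of -1.24 ± 0.23 (edgeR adjusted p = 0.0029), Mlkl by -0.83 ± 0.19 (edgeR adjusted p = 0.0111), Nfkbie by -0.76 ± 0.22 (edgeR adjusted p = 0.0318), Tnip1 by -0.71 ± 0.14 (edgeR adjusted p = 0.00413) and Rhbdf1 by -0.38 ± 0.11 (edgeR adjusted p = 0.0342). Chuk was higher by 0.53 ± 0.10 (edgeR adjusted p = 0.00398). Ltb was not called and stood at -1.06 ± 0.41 (edgeR adjusted p = 0.10). The count of 17 was 8 without CCl4 4, 10 without CCl4 7, 4 without both and 27 without CCl4_PTH 1, and it was 9, 11 and 8 without CCl4_PTH 3, 6 and 7.

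For counts by role in CCl4_PTH against control livers, the shares of all genes called higher and lower were 17.4% and 10.3%. CCl4_PTH livers still had 20 of the 28 target genes higher than control, with a median of 2.02. Ligands (5 of 9 higher), receptors (8 of 19 higher, 1 lower), adaptors and death-switch genes (5 of 14 higher, 1 lower) and kinases (5 of 12 higher, 1 lower) followed. Ltb stood 1.95 ± 0.45 above control (edgeR adjusted p = 0.00347), Nfkbie 1.18 ± 0.23 (edgeR adjusted p = 0.000934), Mlkl 1.22 ± 0.20 (edgeR adjusted p = 0.000221), Ikbke 1.04 ± 0.14 (edgeR adjusted p = 3.40e-05), Tnip1 0.78 ± 0.14 (edgeR adjusted p = 0.000514) and Bcl2a1b 2.90 ± 0.32 (edgeR adjusted p = 6.21e-06). Timp3, the gene of an inhibitor of the enzyme that frees TNF, stood 0.74 ± 0.14 above control (edgeR adjusted p = 0.00075, with an antisense gene, Syn3, over its exons). Tnfrsf9 had 212 counts in CCl4_PTH livers, at least 40.4-fold more than the control floor allows. Of the remaining roles 2 of 13 ubiquitin-editing genes were higher and 2 lower, 2 of 7 inhibitors were higher and 1 lower, and 3 of 9 genes of TNF release and mRNA control were higher. The 6 lower genes were Casp8, Chuk, Ltbr, Nkiras1, Rbck1 and Rnf31, and their number was 3 without control 2 and 2 without CCl4_PTH 3.

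**Figure D5:**
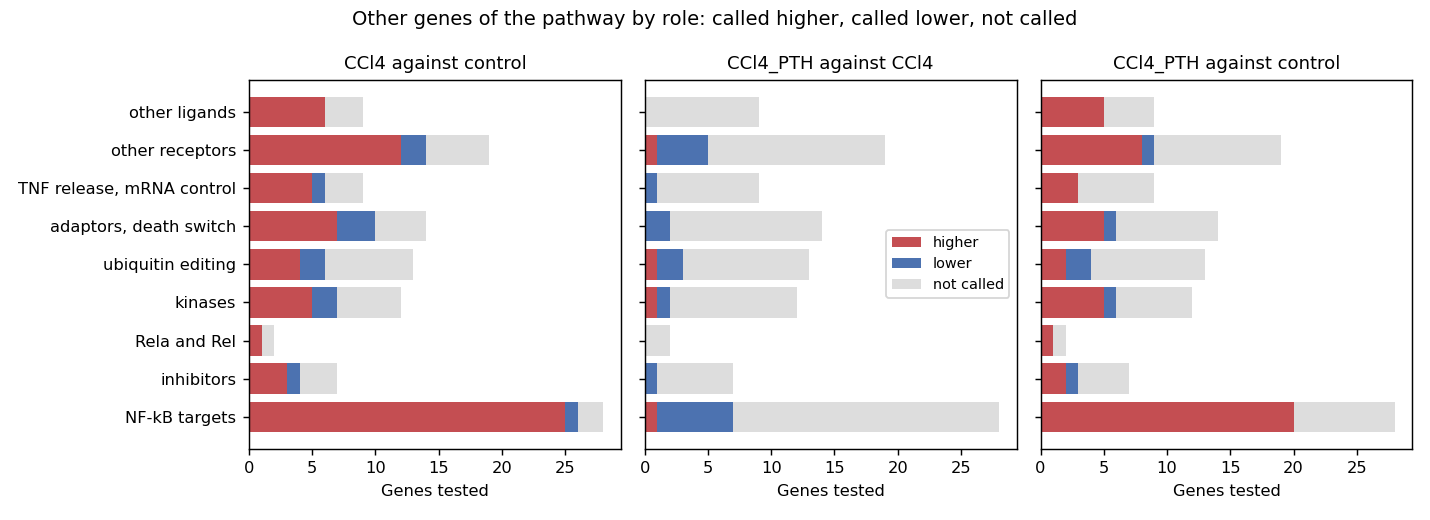
Stacked bars give the number of tested genes per role that edgeR called higher, called lower or did not call (adjusted p under 0.05) in the 3 comparisons, members not included. Of the 28 NF-kB targets 25 are higher with CCl4, 6 are lower in CCl4_PTH than in CCl4 livers, and 20 are higher in CCl4_PTH than in control livers. Over all genes tested the shares of these calls were 26.3%, 4.95% and 17.4%.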

How the data were processed

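Long RNA of liver was measured in 18 mice, 6 per group, grouped by the labels. Per the labels' protocols, RNA was taken with TRIzol, ribosomal RNA was removed and NEBNext libraries were read as paired ends. Per the submitters' processing notes, the build was GRCm38 and the tools included cutadapt 4.2, HISAT2 2.2.1 and StringTie 2.1.5, with no role or order. The sources used here do not say which tool counted, with what annotation or strand setting. The authors deposited estimated counts per gene, as whole numbers not scaled to depth (67.2 M to 119 M per library). Rounding changed none of them.

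All 3 comparisons came from 1 fit of edgeR 4.0.16 in R 4.3.3 (robust quasi-likelihood F test, TMM factors, filterByExpr with a minimum count of 10, 21840 of 54752 genes, Benjamini-Hochberg adjustment over all of them, threshold 0.05). SE was taken as the size of a log2 fold change over the root of its F. Log2 fold changes, CPM and ratios were computed from the deposited counts. Ratios were tested by exact permutation (924 arrangements, adjusted over 18 tests). Lengths and coordinates are from GENCODE M21 (GRCm38), which matched 54723 of 54752 identifiers, and start windows from RefSeq. The fit was run on simulated counts with 200 changed genes as a check of the code. Outlying livers and a large shift in composition were not simulated, so that check does not bear on them. All 45 pairs of libraries of the same group differed beyond sampling noise (lowest chi-square 26.9 per gene), and the labels name no batch.

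The members and gene lists were chosen with earlier results of these data known. Genes named beside the members are, per comparison and role, the called gene with the smallest p, then Tnfsf12, Rela, Rel, Map3k14, Birc2, Nfkbib and Nfkbie, and the 3 genes of at least 1 CPM on average most like Tnf, Tnfrsf12a and Nfkb2, of which 1 is not reported here. Other genes named as exceptions or among the lower ones were picked after their values were seen. Alternatives tried were size factors of DESeq2 1.42.0, library sizes alone, no ribosomal loci, no filter, DESeq2, limma 3.58.1 voom with quality weights, fits of only the groups compared, a replicate block, leaving out each library and, chosen after seeing the data, leaving out CCl4 4 and 7 together. Marker lists for hepatocytes, leukocytes, Kupffer cells, monocytes and macrophages, neutrophils, T and NK cells, B and plasma cells, bile duct, stellate cells and endothelium were summed per library. Small RNA and circular RNA were not analysed here.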

Additional observations from a re-analysis of the deposited data

Results flagged for a closer look

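In each of the 30 sets of 6 libraries (10 members in 3 groups), the gap between the highest or lowest library and its nearest neighbour was set against the range and compared with Dixon's 95% critical value. For normally distributed values chance alone marks about 1 in 20 such sets, and 4 of the 30 were marked. Levels in CPM need not be distributed so, and the sets reuse the same 18 libraries, so that rate is a rough guide. Tnfrsf1a had 74.8 CPM in CCl4_PTH 1, where the other 5 CCl4_PTH libraries had 37.4 to 41.7 CPM. Tnfrsf12a had 30.9 CPM in CCl4 5, where the other 5 CCl4 libraries had 5.13 to 14.7 CPM. Tnfrsf12a also had 13.0 CPM in CCl4_PTH 1, where the other 5 had 1.12 to 2.40 CPM. Tnfaip3 had 16.2 CPM in CCl4_PTH 1, where the other 5 had 4.99 to 8.49 CPM. So 3 of the 4 values belong to 1 liver, CCl4_PTH 1.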

How the results depend on the processing

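Of the 8 member calls for CCl4 against control, 7 held under all 27 alternatives (all but Tnfrsf1a), and the 5 calls for CCl4_PTH against control held under all 27. None of the 5 calls for CCl4_PTH against CCl4 did. Their number was 2 with library sizes only, 3 with no filter and 1 in a fit of only the 2 groups compared. With limma voom it was 7, as Tnfrsf1a and Tnfaip3 were called too, and with DESeq2 it was 5. The number was 0 without CCl4 4 and 7, and 0 to 7 when 1 library was left out. Pathway genes lower in CCl4_PTH than in CCl4 livers (17) numbered 11 with library sizes only, with no filter and in the fit of 2 groups, 4 without CCl4 4 and 7, and 8 to 27 with 1 library left out. With library sizes only, 1 pathway gene (of 12) was lower with CCl4, 0 (of 4) were higher in CCl4_PTH than in CCl4 livers, 8 members (of 5) and 80 pathway genes (of 51) were higher in CCl4_PTH than in control livers, and 0 pathway genes (of 6) were lower. Those 6 became 1 with no filter, 10 with limma voom, and 2 to 9 with 1 library left out. With library sizes only, Nfkbia turned from -0.05 to 0.58 for CCl4 against control, the medians of all genes became 0.63, -0.13 and 0.51, and the share of calls that were higher went from 55.3%, 58.9% and 62.8% to 91.4%, 43.4% and 96.4% (in turn CCl4 set against control, then CCl4_PTH set against CCl4 and against control). The cause of these changes was not tested.

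Replicate numbers gave no sign of pairing: over 13 pairs with the same number the correlation of deviations was -0.19 to 0.07 (median -0.04). Over 95 other pairs the median was 0.001. A correlation over all genes cannot exclude a weak pairing or a shared order of processing. CCl4 and CCl4_PTH had only the numbers 1, 2, 7 and 8 in common, and what this did to the fit with a replicate block was not tested. With a replicate block, members lower in CCl4_PTH than in CCl4 livers numbered 0, pathway genes 0 higher and 0 lower, and pathway genes lower in CCl4_PTH than in control livers 1. Over all genes, that block took the calls for CCl4_PTH against CCl4 from 1551 higher and 1081 lower to 42 and 42. The low counts of Tnf in control livers (58 in all) limit its fold change there.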
